A study of Williopsis jadinii with 2 samples.

Results

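The genes described here kept a high transcript level on both sugars in Cyberlindnera jadinii, a yeast grown for food and feed and listed in the labels as Williopsis jadinii. Genes were selected on the deposited FPKM of both libraries. A gene was included when its coding length exceeded 300 bases, its FPKM ranked among the top 300 of all genes in glucose and again in xylose, and its xylose FPKM was between 0.5 and 2 times its glucose FPKM. FPKM is the read count per kilobase of coding length and per 1000000 counts of the library, so it compares levels between genes of different length. The conditions were met by 145 of 5880 genes (2.47%), called stable abundant genes below. Because the genes were chosen by both levels and by their ratio, high level and likeness between the sugars are descriptions and were not tested.

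The wild-type strain NBRC0988 (genotype WT) was the source of both libraries. Cells from an overnight culture were started at an OD600 of 0.1 in glucose medium (YEPD), reached an OD600 of 2 to 3 within 15 h, and were washed. They then spent 5 h at 30 °C and 250 rpm in YEP medium that held either glucose or xylose at 2% (w/v), so the xylose cells had also grown on glucose before. Each sugar had 1 bulk RNA library, with 14728899 counts for glucose and 13061052 for xylose. No spread between cultures can be estimated from 1 library per sugar, every comparison is between these libraries, and no p-value is given. Intervals cover counting error only. The reads carry no molecular identifiers and may repeat the same molecule, so the intervals may be too narrow even for counting error. The files give genes only as running IDs beginning with CJ and pair none with a name or product. None of the 5880 IDs occurred in the RefSeq gene table of another strain of the species (assembly Cybja1, 6184 genes), so no function, sequence or marker gene can be given for any ID.

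As background, a yeast cell draws much of its messenger RNA from a small part of its genes. In growing yeasts these are typically genes for ribosomal proteins, translation factors, enzymes of glycolysis, and chaperones. Glucose enters glycolysis directly, whereas xylose, a pentose of plant biomass, is taken through xylitol and xylulose into the pentose phosphate pathway. Transcripts that keep their level over such a change of carbon source are of practical use as reference genes and as sources of constitutive promoters. Which of these classes the CJ genes belong to is not known from the files.

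The stable abundant genes held nearly the same part of each library. In glucose their share was 29.1% of all counts (exact Clopper-Pearson 95% interval 29.11% to 29.16%), and in xylose it was 29.9% (29.92% to 29.97%). Measured per length, as a share of the FPKM sum, they took 31.5% in glucose and 30.7% in xylose, so the direction of this small difference depended on the measure. It also depended on the scaling in the choice: with the 2-fold window set on TMM-scaled levels, a scaling described with the ratios, 138 genes held 28.5% in glucose and 28.2% in xylose. In bulk RNA a share does not tell more transcripts per cell from fewer transcripts of other genes, or a change in the cells present. Within the group there was movement in both directions. The shares of 88 genes were larger in xylose by 3.81 percentage points in sum, and those of 57 genes were smaller by 3.00 percentage points, which left a net 0.808 percentage points more in xylose. Over all genes the gains summed to 25.5 percentage points, of which 21.7 were outside the stable abundant genes. The 2-fold limit bounds the gains inside the group, so nothing is read from this contrast.

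The rest of the top of the libraries was divided by the choice as follows. Of the 200 genes in the top 300 of both libraries, 31 had a coding length of at most 300 bases, and 24 had a ratio beyond 2-fold. The share of the 31 short genes was 2.70% in glucose and 2.40% in xylose, and all 31 were within 2-fold. The 24 genes beyond 2-fold went from 3.17% to 6.33% of the counts, with 20 higher and 4 lower in xylose. Rank 300 lay at 580 FPKM in glucose and 768 FPKM in xylose. A gene more than 2-fold lower thus needed a high glucose level to stay in both lists. The rank limits therefore bear on this split and on the change of share, and nothing is read from them. The 100 genes in the glucose top 300 alone went from 12.3% to 4.55%, and the 100 in the xylose top 300 alone from 1.84% to 10.5%. The plot of library shares sets these groups side by side.

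**Figure D1:**
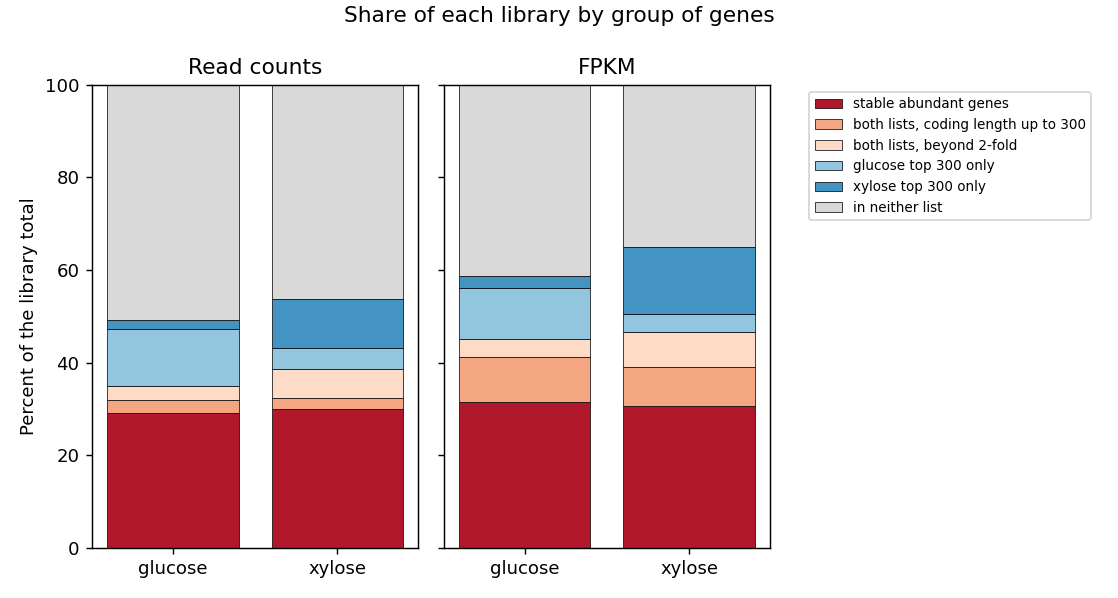
Percent of the library total (vertical axis) held by each group of genes, for read counts on the left and for the FPKM sum on the right, with 1 glucose and 1 xylose library. The lowest segment, the stable abundant genes, is at 29.1% and 29.9% of the counts and at 31.5% and 30.7% of the FPKM sum. The segments of genes in the top 300 of a single sugar differ between the bars, which the way these groups were formed favours.

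A few genes carried much of this share. In glucose 20 of the 145 genes made up 50% of the group's counts, and in xylose 21 did. The 10 with the most counts held 36.6% of the group's counts in glucose and 34.2% in xylose. By level, 14 genes were at or above 5000 FPKM in glucose and 15 in xylose, and these held 12.2% and 11.2% of all counts. The largest class lay between 1000 and 2000 FPKM, with 69 genes in each library. The median level of the group was 1427 FPKM in glucose, with a range from 613 to 24507, and 1436 FPKM in xylose, with a range from 768 to 21439. For comparison, the median over all 5880 genes was 49.96 FPKM in glucose and 41.0 FPKM in xylose.

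**Figure D2:**
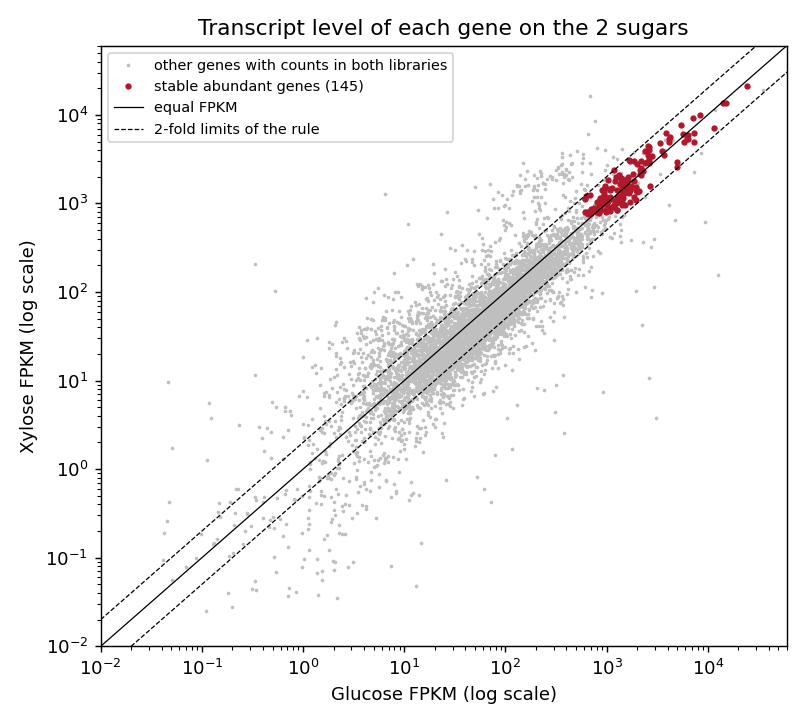
Glucose FPKM (horizontal, log scale) against xylose FPKM (vertical, log scale) of each gene with counts in both libraries, with the 145 stable abundant genes in red. The red points run along the line of equal FPKM from 613 FPKM in glucose upwards, inside the dashed 2-fold limits that chose them.

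The highest level belonged to CJ0102 (1005 bases). It stood at 24507 FPKM in glucose and 21439 FPKM in xylose, which ranked it 2 and 1 among all genes. Its level was lower in xylose by the deposited FPKM, at 0.875 times the glucose value (95% interval 0.871 to 0.879), and higher with TMM scaling, at 1.056 times (1.051 to 1.061). Next in glucose was CJ2232 (1620 bases), with 15204 FPKM there and 13680 FPKM in xylose. Its ratio was 0.900 by deposited FPKM and 1.09 with TMM scaling, so its direction turned too. By counts it was ahead of CJ0102 in xylose, with 289447 against 281418, but the 362775 and 362761 counts in glucose could not be ordered. CJ3649, a short gene of 324 bases, stood at 14105 FPKM in glucose and 13686 FPKM in xylose and ranked 4 in both. Its ratio was 0.970 by deposited FPKM and 1.17 with TMM scaling. In xylose CJ3649 and CJ2232 could not be ordered, since their counting intervals overlapped (13575 to 13798 and 13630 to 13730 FPKM).

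The remaining genes at the top were less alike on the 2 sugars. CJ1327 (480 bases) had 11543 FPKM in glucose and 7134 FPKM in xylose, a ratio of 0.618 (0.611 to 0.625), and its rank went from 7 to 11. CJ4630 (426 bases) had 8300 FPKM in glucose and 10019 FPKM in xylose, a ratio of 1.21 (1.19 to 1.22), and its rank went from 10 to 7. CJ2128 (843 bases) had 7082 FPKM in glucose and 9275 FPKM in xylose, a ratio of 1.31 (1.30 to 1.32), and its rank went from 14 to 8. Of the 10 highest ranks, stable abundant genes held 5 in glucose and 6 in xylose, and of the 20 highest they held 13 and 15.

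The ratios filled most of the allowed window. The xylose to glucose ratio of deposited FPKM ran from 0.527 to 1.9997 with a median of 1.08, and 88 genes had a ratio above 1 and 57 below. FPKM relates each gene to the total of its library, and on that scale the median log2 ratio of all 5643 genes compared, those with a summed count of 50 or more, was -0.27. TMM scaling, which sets the libraries against each other by a trimmed mean of gene ratios, brought that median to -0.01, and on it the stable abundant genes had a median log2 ratio of 0.38 (with a pseudocount of 1 CPM). By TMM-scaled folds 113 genes were above 1 and 32 below, so 25 genes changed side with the scaling. The choice used the same ratio, and its rank limit lay at 580 FPKM in glucose and 768 FPKM in xylose, which kept out low ratios. Nothing about the group is therefore read from these counts or from its median. Over the 5 scalings tried, 88 genes were above 1 in all of them, 32 were below 1 in all of them, and 25 were mixed. Each scaling multiplies every FPKM ratio by a constant, from 1 to 1.217, so these counts restate those above and add no separate support. Of all genes compared, 72.3% had an FPKM ratio within the 2-fold window, a condition that every stable abundant gene meets by choice.

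Stability in the sense of the choice therefore still left room for differences well beyond the counting intervals. With TMM scaling, 88 genes (60.7%) stood at least 1.2-fold higher in xylose with an interval that excluded equality, where 36.2% of all compared genes did. At least 1.2-fold lower were 14 genes (9.66%), against 35.4% of all compared genes. The other 43 genes were in neither class. At 1.5-fold, 45 genes (31.0%) were higher, against 24.7% of all compared genes, and 1 (0.69%) was lower, against 19.8%. With total-count scaling, the scale of the deposited FPKM, 51 genes (35.2%) were at least 1.2-fold higher, against 26.4% of all compared genes. On that scale 32 (22.1%) were at least 1.2-fold lower, against 50.1%, and 62 were in neither class. These shares follow in part from the choice of genes, which used the same ratio, and nothing is read from them about the group. By TMM-scaled folds 9 genes were more than 2-fold higher in xylose and none was more than 2-fold lower. Both counts are bound by the choice, which kept every FPKM ratio within 2-fold. TMM scaling multiplied each of these ratios by 1.207, so no chosen gene could be more than 2-fold lower. The 9 genes passed 2-fold through this scaling alone, and nothing is read from either count. The lowest count of any stable abundant gene was 4098 in glucose and 3703 in xylose, where counting error is about 3.11% and 3.27% at the upper bound.

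**Figure D3:**
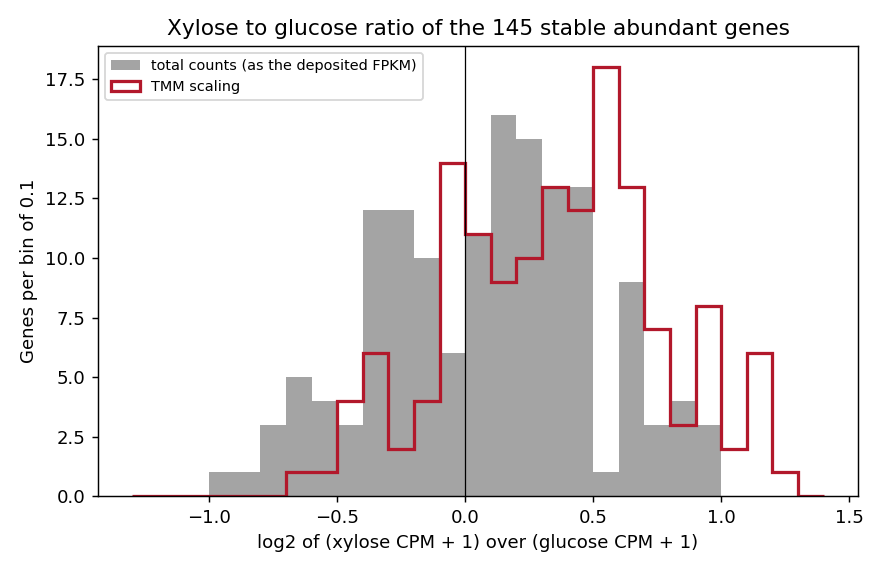
Number of stable abundant genes (vertical axis) per bin of the log2 ratio of xylose to glucose CPM with a pseudocount of 1 (horizontal axis), in grey with total-count scaling and in red outline with TMM scaling. The same genes lie around a median of 0.11 in grey and of 0.38 in red, so the side of 0 on which a gene falls depends on the scaling for 25 of them.

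The extremes of the window were as follows. The highest ratio belonged to CJ4741, which at 2832 bases was also the longest gene of the group. Its 49823 glucose counts and 88349 xylose counts correspond to 1194 and 2389 FPKM, and its rank went from 143 to 78. Its ratio of 1.9997 (1.98 to 2.02) lay at the edge of the window, and its share of the counts grew from 0.338% to 0.676%, the largest gain in the group. CJ5709 (564 bases) followed with 629 FPKM in glucose and 1198 FPKM in xylose, a ratio of 1.90 (1.84 to 1.97). At the low end CJ2763 (597 bases) had 4927 FPKM in glucose and 2598 FPKM in xylose, a ratio of 0.527 (0.519 to 0.536). CJ4829 (795 bases) had 1971 FPKM in glucose and 1107 FPKM in xylose, a ratio of 0.561 (0.549 to 0.574). All 4 kept their direction with TMM scaling, with folds of 2.41, 2.30, 0.637 and 0.678 in the order named.

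The genes nearest to equality depended on the scaling too. With TMM scaling they were CJ1834 (1017 bases) and CJ0879 (2415 bases), with folds of 0.989 (0.971 to 1.01) and 0.989 (0.976 to 1.002). By deposited FPKM both were lower in xylose. CJ1834 had 1721 FPKM in glucose and 1410 FPKM in xylose, and CJ0879 had 1429 FPKM in glucose and 1171 FPKM in xylose. Each had a ratio of 0.82 on that scale. Within 1.1-fold of equality were 31 genes with TMM scaling and 28 genes by deposited FPKM. The interval included equality for 10 genes with TMM scaling and for 6 by total counts.

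Most stable abundant genes had a lower rank in xylose although most had a higher FPKM there. Rank 1 is the highest FPKM in a library. In xylose 110 genes ranked lower than in glucose, 33 ranked higher and 2 kept their rank, and the median rank went from 111 to 172. The median shift was 30 ranks downwards, against 59 downwards for all 5880 genes and 19 downwards for the 31 short genes in both top lists. A fall in rank was therefore not particular to the group. The FPKM was higher in xylose for 57 of the genes that ranked lower there. The levels needed for a given rank were higher in xylose. The gene at rank 100 had 1530 FPKM in glucose and 2125 FPKM in xylose, and the gene at rank 300 had 580 and 768 FPKM. At rank 10 the order was the other way, with 8300 FPKM in glucose and 7625 FPKM in xylose. The opposite case, a lower FPKM with a higher rank in xylose, was seen for 2 genes.

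The shift in rank was small at the top and larger below. Levels were further apart at the top. In glucose they were 8300 FPKM at rank 10 and 2583 at rank 50, against 1530 at rank 100 and 888 at rank 200. A small shift in rank at the top does not by itself mean a ratio nearer to 1. The median absolute shift was 36 ranks, 61 genes moved by at most 25 ranks, and 28 moved by more than 100, all 28 of them downwards. The largest fall was 154 ranks and the largest rise 79. From glucose rank 300 (580 FPKM) a rise of 100 ranks needed 1229 FPKM in xylose. From glucose rank 200 (888 FPKM) it needed 2125 FPKM. Both are beyond the 2-fold limit, so the choice kept out such rises, and nothing is read from the direction of the large shifts. Among genes in ranks 1 to 50 of glucose, the 31 stable abundant genes had a median absolute shift of 6 ranks, with 15 ranking lower, 14 higher and 2 the same in xylose. In ranks 51 to 100 the 34 genes had a median absolute shift of 40, and 27 ranked lower. In ranks 101 to 200 the 60 genes had a median of 61, and 51 ranked lower. In ranks 201 to 300 the 20 genes had a median of 44.5, and 17 ranked lower, but here the limit at rank 300 kept out larger falls. The top 50 of both libraries held 25 of the stable abundant genes, and the top 100 of both held 44.

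**Figure D4:**
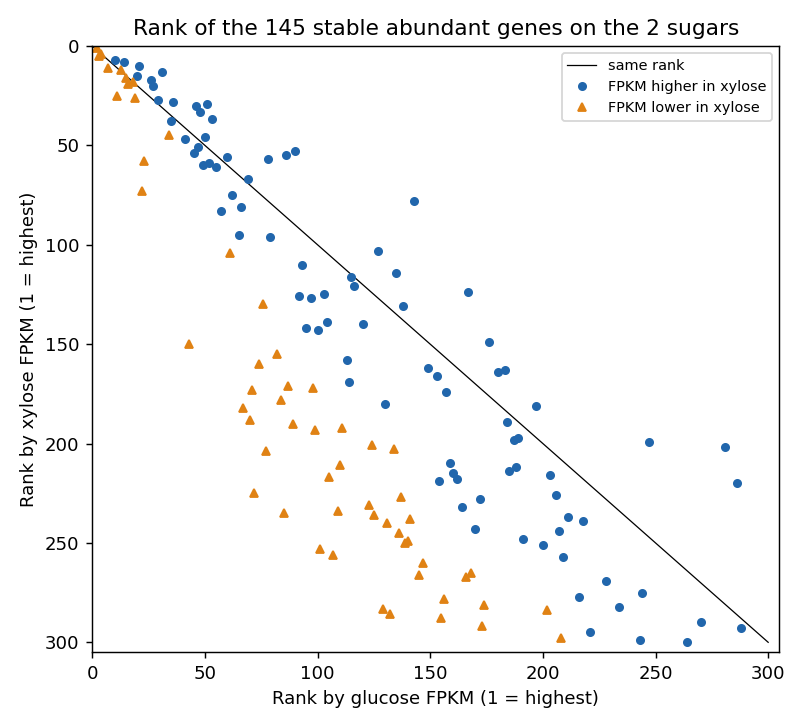
Rank by glucose FPKM (horizontal) against rank by xylose FPKM (vertical, rank 1 at the top) of the 145 stable abundant genes, with genes of higher xylose FPKM as blue circles and genes of lower xylose FPKM as orange triangles. Of all points, 110 lie below the line of same rank, and 57 of these are blue.

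Across these genes glucose and xylose FPKM had a Spearman correlation of 0.833, against 0.884 over all 5880 genes. Both are descriptions over genes of the same 2 libraries. The first is bound by the choice, since the 2-fold limit on the ratio favours a high value and the narrow range of levels a lower one. By level, the median FPKM ratio was 1.09 for glucose ranks 1 to 50, 1.02 for ranks 51 to 100, 1.05 for ranks 101 to 200 and 1.22 for ranks 201 to 300. In the last band only 20 of 100 genes were stable abundant genes. Rank 300 lay at 768 FPKM in xylose and 580 FPKM in glucose, so the choice kept out genes of that band with low ratios. Its median is therefore not read as a trend by level. The 31 genes of ranks 1 to 50 took 16.4% of all counts in glucose and 15.8% in xylose, although their median FPKM ratio was above 1. Of these genes, CJ0102 went from 2.46% to 2.15% and CJ2232 from 2.46% to 2.22%, so the lower share is not read as a trend by level. Each of the lower bands of glucose rank had a larger share in xylose. Those bands went from 5.53% to 6.05% (ranks 51 to 100), from 5.83% to 6.41% (ranks 101 to 200) and from 1.41% to 1.73% (ranks 201 to 300). The rank limit bears on the last of these shares as well.

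The stable abundant genes were shorter than most genes. Their coding lengths ran from 312 to 2832 bases with a median of 687 bases (229 codons with the stop), and the middle of the group lay between 456 and 1095 bases. The 5711 genes above 300 bases had a median of 1242 bases. Up to 600 bases long were 60 of the stable abundant genes (41.4%), against 13.8% of the 5711 genes. Over 2000 bases long were 5 (3.45%), against 20.1%. Other genes of a top 300 list were similarly short: the 209 above 300 bases that were not chosen had a median of 684 bases. The share of genes that were stable and abundant was lower in each longer class, from 9.91% of genes with 301 to 450 bases to 0.886% of genes over 1500 bases.

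**Figure D5:**
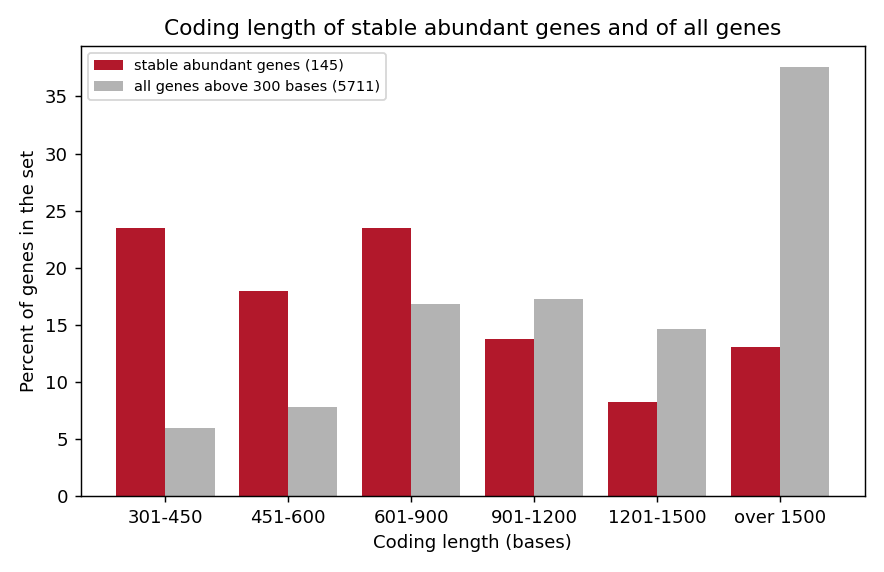
Percent of genes (vertical axis) in each class of coding length in bases (horizontal axis), for the 145 stable abundant genes in red and for all 5711 genes above 300 bases in grey. In the classes up to 900 bases the red bars are higher, with 23.4% against 6.01% in the shortest, and above 900 bases the grey bars are higher.

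FPKM divides by coding length, so the ranking used length. When genes were ranked by read counts instead, 156 genes met the conditions, 113 of them shared with the 145, and their median coding length was 1086 bases. The deposited lengths hold no UTRs, and their part in the short lengths of the group was not tested. Within the group, length had little relation to level, with a Spearman correlation of -0.11 to glucose FPKM and -0.10 to xylose FPKM, but a correlation of 0.619 and 0.606 to the counts, all given as descriptions over 145 genes. Its correlation with the TMM-scaled log2 ratio was 0.013. The 19 genes over 1500 bases held the largest part of the counts, with 8.65% in glucose and 9.11% in xylose, and the 34 genes of 301 to 450 bases held 3.05% and 3.40%.

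The shortest coding length, 312 bases, was shared by 4 genes that differed in level and ratio. CJ0362 had 4117 FPKM in glucose and 4891 FPKM in xylose. CJ2495 had 2177 FPKM in glucose and 2077 FPKM in xylose. CJ5633 had 1650 FPKM in glucose and 3096 FPKM in xylose, and CJ0736 had 974 FPKM in glucose and 1592 FPKM in xylose. CJ2495 was the lone gene of these with a lower FPKM in xylose, and with TMM scaling it too was higher (fold 1.15, 1.12 to 1.19).

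Some genes stood close to a limit of the choice. The ratio just inside the upper limit was 1.9997 and the next outside it was 2.01. At the lower limit the values were 0.527 inside and 0.497 outside. The last stable abundant gene by glucose level had 613 FPKM at rank 288, and the first one missed by glucose rank alone had 579 FPKM at rank 301. In xylose the corresponding levels were 768 FPKM at rank 300 and 746 FPKM at rank 301. By coding length the shortest gene inside had 312 bases and the longest outside had 297 bases.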

How the data were processed

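For each library the authors deposited a table of 5880 genes with coding length, raw read counts and FPKM values. Per the file headers the counts are raw. The submitters' processing notes name HISAT2 (2.2.1) as a tool. How reads were counted, by strand or not, and how multi-mapping reads were treated is not given in the sources used here, nor are build and annotation. Genes that overlap, lie antisense or are nearly identical may therefore share reads. Each deposited FPKM equalled the count per kilobase of coding length and per 1000000 of the column total within a relative tolerance of 1e-06, with 0 exceptions, and all 5880 coding lengths were multiples of 3.

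From the files, FPKM ranks (no ties in the top 300), shares and ratios were computed with pandas 2.3.3 and scipy 1.17.1 in Python. TMM factors came from edgeR 4.0.16 (1.10 for glucose and 0.91 for xylose) and median-of-ratios factors from DESeq2 1.42.0, in R 4.3.3. Log2 ratios are of CPM with a pseudocount of 1. Folds of single genes carry none, with exact conditional binomial 95% intervals, and levels carry exact Poisson intervals. The calculation was tested on simulated data. IDs were printed for the 5 highest FPKM per library, the 2 highest and 2 lowest ratios, the 2 TMM-scaled folds nearest to 1, the longest and shortest genes and the 2 largest glucose shares. Gene lists of ribosomal proteins, glycolysis and other classes could not be matched to any ID. The genes and lists were chosen with earlier results of these data known.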

Additional observations from a re-analysis of the deposited data

How the results depend on the processing

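The median log2 ratio of the group stayed above 0 under every alternative run, all of them on the same 2 libraries. The choice used this same ratio and a rank limit that lay at 768 FPKM in xylose and 580 FPKM in glucose. Nothing about the group is therefore read from the sign of the median. With the ratio taken on TMM or median-of-ratios levels, 136 of the 145 genes were kept and the group held 28.5% of the glucose and 28.2% of the xylose counts, the only choice of genes tried with a smaller share in xylose. The top 200 gave 86 genes with 23.4% and 24.6% of the counts, a median absolute rank shift of 16 and a median log2 ratio of 0.50. The top 500 gave 262 genes with 35.8% and 36.1%, a shift of 60.5 and a median of 0.27. A 1.5-fold window gave 23.7% and 24.0%, and a 3-fold window 30.6% and 32.8%. Without a length limit the group held 31.8% and 32.3% with a median length of 592.5 bases, and above 600 bases 85 genes held 22.9% and 23.7% with a median of 1008 bases. Ranking by counts gave 31.6% and 32.4% and a median of 1086 bases. The median log2 ratio was 0.11 with total-count and 0.29 with upper-quartile scaling. Total-count scaling gave 51 higher and 32 lower genes at 1.2-fold, where 26.4% and 50.1% of all compared genes were higher and lower. A 1.5-fold threshold with TMM gave 45 and 1, where 24.7% and 19.8% of all compared genes were higher and lower. These counts too are bounded by the ratio window of the choice. Fewer or more genes follow from narrower or wider limits by construction. With 1 library per sugar, leaving out a replicate was not possible. No paired analysis was possible because there was a single pair of libraries. Variation between cultures was not measured, and depth was not the limit for these genes.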

Other observations

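The IDs are running numbers, and the files do not say that they follow the order of genes on chromosomes. Among the 145 stable abundant genes, 18 (12.4%) had another one at the next or previous number, and so did 265 of the 5735 other genes (4.62%). They formed 10 consecutive pairs, of which 3 came from a single run of 4 genes. The 265 other genes with an ID next to a stable abundant gene had a median level of 54.4 FPKM in glucose and 39.4 FPKM in xylose, against 47.6 and 39.0 FPKM for the remaining 5470 genes. These are descriptions, and no test of chance was made.

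Within these pairs, 2 had the same pair of coding lengths, 411 and 312 bases, a detail that was picked out after the values were seen. CJ0361 (411 bases) had 2828 FPKM in glucose and 3472 FPKM in xylose beside CJ0362 (312 bases) with 4117 and 4891 FPKM. CJ5632 (411 bases) had 4165 FPKM in glucose and 5296 FPKM in xylose beside CJ5633 (312 bases) with 1650 and 3096 FPKM. The ratios within the first pair were 1.23 and 1.19, and within the second 1.27 and 1.88. Whether genes of equal length share sequence, and so reads, was not tested, since the files hold no sequences.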
